A study of Mus musculus with 35 samples.

Results

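The genes Otx2, Foxd3, Zic2, Pou3f1, Sall2 and Fgf5 mark the epiblast as it leaves naive pluripotency and passes through the formative into the primed state. They are 6 of 21627 protein-coding genes of chromosomes 1 to 19 and X and were chosen by name. Every peak of 22 chromatin immunoprecipitation (ChIP-seq) lists that lay over 1 of these genes or within 50 kb of it (GRCm38 coordinates) was taken as belonging to its window. The windows were 102 kb to 123 kb long.

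The lists came from a mouse reprogramming series in which fibroblasts were driven towards pluripotency, and each list held the peaks of 1 library. H3K27ac, acetylation of histone H3 at lysine 27, was profiled in 2 libraries of mouse embryonic fibroblasts (MEF), 3 of day 3, 3 of day 6, 2 of day 9 and 2 of embryonic stem cells (ESC). KLF4, a zinc finger factor that is itself induced in these cells, was profiled in 2 libraries each of day 3, day 6, day 9, serum ESC and ESC_2I. The 13 input libraries were not analysed here.

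MEF and all reprogramming cells were labelled strain C57BL/6 x 129 and genotype OKSM Col1a1/M2rtTA ROSA26, a doxycycline-inducible cassette of Pou5f1, Klf4, Sox2 and Myc with its transactivator. MEF were in MEF medium with no doxycycline. Cells of days 3, 6 and 9 were in ESC medium with doxycycline (1 µg/ml) and ascorbic acid (50 µg/ml). Those of day 3 were unsorted, and those of days 6 and 9 were sorted for SSEA1, a surface sugar of pluripotent cells. ESC were the V6.5 line, labelled with the same strain, and had been kept on irradiated feeders in serum with LIF, and the share of feeder cells in a library is not given. ESC_2I had in addition 1 µM of a MEK inhibitor and 3 µM of a GSK3 inhibitor (2i). Each KLF4 profile up to day 9 was thus made with the KLF4 transgene switched on, while the V6.5 line carries no such label.

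Naive pluripotent cells match the epiblast before implantation, and 2i holds cells close to that state by blocking MEK signalling. On leaving it, cells silence naive factors and activate OTX2, which with POU3F1 (OCT6) redirects POU5F1 to other enhancers, while FGF5 and ZIC2 come up as the epiblast matures. Serum cultures are mixed and hold some cells on this path. H3K27ac marks active promoters and enhancers, so its peaks around a gene report on regulatory activity there and not on transcript levels, which were not analysed here.

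RefSeq (GRCm38.p6) gave a promoter entry for 4 of the 6 genes, and the 250 bases before 1 start of each are shown because together they hold 3 patterns of H3K27ac, with Otx2 and Foxd3 alike. Capitals mark every match to GGGNGTG, the core of the KLF4 motif, on either strand, and overlapping matches run together. The 8 libraries of days 3, 6 and 9 had no H3K27ac peak over the Otx2, Foxd3 or Fgf5 sequence, and only the Sall2 sequence lay under H3K27ac in MEF, day 3, day 9 and ESC alike. The Otx2 and Sall2 sequences are read from the minus strand of chr14:48667645-48667894 and chr14:52316324-52316573, and those of Foxd3 and Fgf5 from the plus strand of chr4:99656049-99656298 and chr5:98253934-98254183.
Otx2, most upstream start, in both ESC and no other library: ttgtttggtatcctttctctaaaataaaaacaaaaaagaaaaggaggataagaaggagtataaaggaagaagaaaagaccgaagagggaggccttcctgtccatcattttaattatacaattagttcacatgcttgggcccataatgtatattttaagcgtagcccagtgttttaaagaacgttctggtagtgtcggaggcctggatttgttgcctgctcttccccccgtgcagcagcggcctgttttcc
Foxd3, in both ESC and no other library: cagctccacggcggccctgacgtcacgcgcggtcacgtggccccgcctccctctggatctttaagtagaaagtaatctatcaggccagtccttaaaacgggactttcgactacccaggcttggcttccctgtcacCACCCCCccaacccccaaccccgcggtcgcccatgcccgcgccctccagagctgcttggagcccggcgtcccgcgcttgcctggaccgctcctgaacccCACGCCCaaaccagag
Fgf5, in both MEF and 1 of 2 ESC libraries: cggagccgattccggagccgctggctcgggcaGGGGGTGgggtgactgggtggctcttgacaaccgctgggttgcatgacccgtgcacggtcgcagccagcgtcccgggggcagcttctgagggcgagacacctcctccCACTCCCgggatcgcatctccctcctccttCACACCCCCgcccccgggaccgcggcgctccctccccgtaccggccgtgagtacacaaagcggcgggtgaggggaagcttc
Sall2, second entry, inside the gene, in all MEF, day 3, day 9 and ESC libraries: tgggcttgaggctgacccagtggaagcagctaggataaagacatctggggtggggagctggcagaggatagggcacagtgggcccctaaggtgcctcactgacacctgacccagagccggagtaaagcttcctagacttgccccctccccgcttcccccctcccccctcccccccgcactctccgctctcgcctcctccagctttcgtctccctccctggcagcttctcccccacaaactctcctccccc
The Fgf5 sequence held 4 matches and the Foxd3 sequence 2, and the Otx2 and Sall2 sequences shown held none. Otx2 has 4 entries, all under H3K27ac in both ESC libraries and no other, and the most downstream one (chr14:48662735-48662984) held 3 matches and the other 3 entries none. The other Sall2 entry, at the upstream start (chr14:52328671-52328920), had no H3K27ac or KLF4 peak in any library and held no match. Such a match was present in 26.1% of the 250-base sequences before all 32851 RefSeq promoter entries. G and C made up 70.8% of the Fgf5 sequence, 65.6% of Foxd3, 64.4% of Sall2 and 42% of Otx2. No KLF4 peak lay over the Otx2, Foxd3 or Fgf5 sequence in any library, and 1 ESC_2I library had a KLF4 peak over that of Sall2. A letter match describes the sequence and does not mark a bound site.

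H3K27ac lists held 17493 to 88347 peaks over 9.21 Mb to 83.5 Mb, longest in MEF and shortest at day 6, and KLF4 lists held 21129 to 34640. Sequencing depth is unknown, so a window without a peak is one in which no peak was called. The H3K27ac libraries of MEF and ESC all came from batch DG-3458 and those of day 9 from batch EA-3702, as the labels name them, and days 3 and 6 had libraries from both. The labels were checked against marker genes. The summed H3K27ac length around 8 fibroblast markers was 229 to 235 kb in MEF and 9.47 to 9.96 kb in ESC, where Col1a2 and Postn were at 0. Around 6 pluripotency markers it was 24.1 to 25.1 kb in MEF, 28.6 to 30.9 kb at day 9 and 197 to 210 kb in ESC.

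H3K27ac around Otx2, Foxd3 and Zic2 was sparse or missing in fibroblasts and early reprogramming, came up partly by day 9 and was broad in ESC. Around Fgf5 it was present in fibroblasts, was at 0 from day 3 to day 9, and ESC had 1 short peak in 1 library. Pou3f1 and Sall2 differed less between MEF and ESC over their whole windows, much of whose acetylation lay at neighbouring genes. Between these stages the Pou3f1 mean fell from 11.8 kb in MEF to 1.03 kb at day 6. The differences over the 5 stages passed an exact permutation test for all 6 genes (adjusted p from 0.000486 for Pou3f1 to 0.0205 for Fgf5). This says little about the 6, since 97.6% of the 19774 windows tested passed it, 44.8% with ESC above MEF and 52.1% with ESC below MEF. The size of a difference and the rank of a gene among all windows are therefore given for each.

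**Figure D1:**
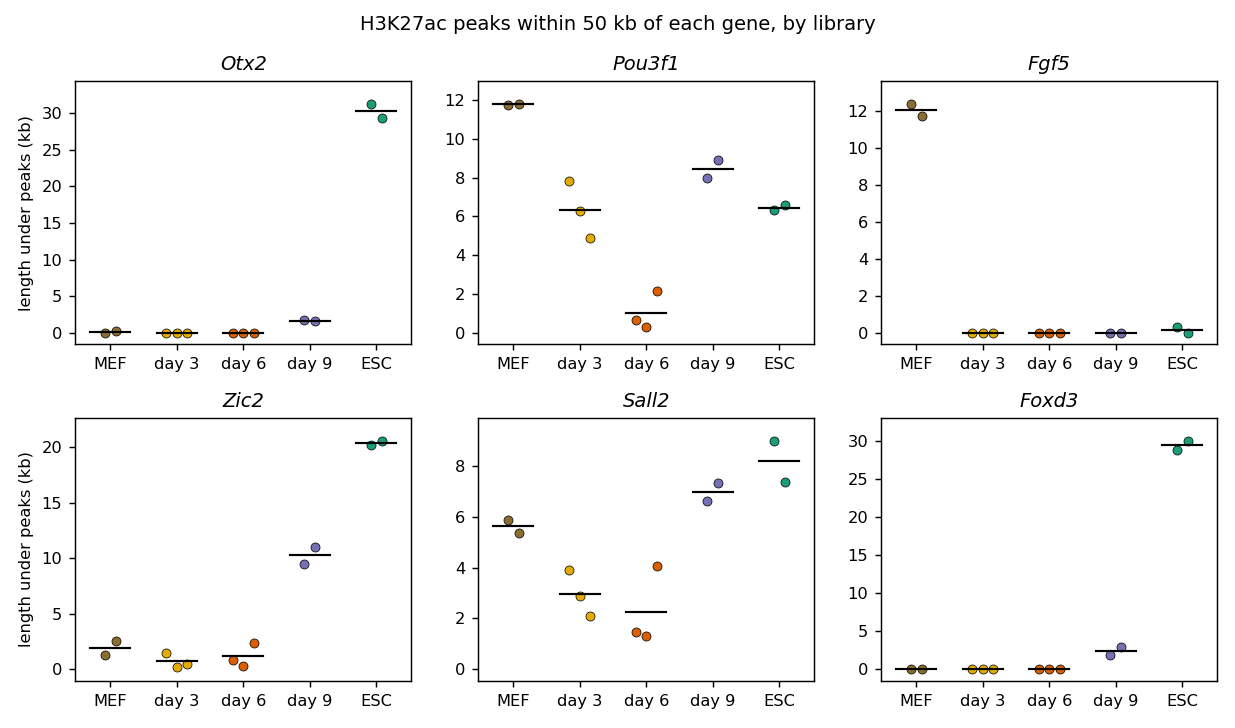
Length under H3K27ac peaks (kb, vertical axis, a scale of its own for each gene) in the gene and 50 kb to each side, for MEF, day 3, day 6, day 9 and ESC. Each point is 1 library and each bar the mean of a stage; Otx2 and Foxd3 stay at or near 0 until day 9, Fgf5 is high in MEF alone, and day 6 is the lowest stage for Pou3f1.

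Otx2 (chr14:48656781-48667644, minus strand) encodes a homeodomain factor that drives the exit from naive pluripotency and later patterns the head. In its window, the 2 MEF libraries had 0 and 0.241 kb under H3K27ac peaks, and all 6 libraries of days 3 and 6 had 0. The 2 day 9 libraries had 1.68 and 1.66 kb, and the 2 ESC libraries had 31.3 and 29.3 kb. ESC thus lay far above every other library, and day 9 lay above all earlier ones without overlap, also against the day 3 and day 6 libraries of its own batch. The mean rose from 0.12 ± 0.17 kb in MEF to 30.3 ± 1.36 kb in ESC (SD, n = 2 each; exact permutation test over 5 stages, adjusted p = 0.00108). When every list was cut to the length of the shortest, by score, ESC was still above MEF by 14718 bp but the call was lost (exact permutation test, adjusted p = 0.0506). ESC peaks covered 27.3% ± 1.22 of the window, more than in 98.6% of coding genes, against a median of 3.11% over all of them.

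Of 25 H3K27ac regions in the Otx2 window, 20 had a peak in both ESC libraries and 19 of these had none in MEF. The ESC peaks with the highest fold were at chr14:48651106-48657405, which runs over the gene's lower-coordinate end, its 3′ side (22.2-fold and 20.2-fold over background, the authors' values). Further regions lay over the gene itself (chr14:48660765-48662954 and chr14:48663008-48668058, both in ESC alone) and in a dense group from 27 kb upstream to the window's edge, inside the long noncoding RNA gene Otx2os1. Both day 9 libraries had a peak in 2 regions, at chr14:48625057-48626985, 30 kb downstream, and at chr14:48698591-48701167, 31 kb upstream. The first of them also had the lone MEF peak. At the gene itself no library before ESC had a peak.

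Foxd3 (chr4:99656299-99658671, plus strand) encodes a forkhead factor needed to maintain the epiblast and, later, the neural crest. All 8 libraries of MEF, day 3 and day 6 had no H3K27ac peak in its window. The 2 day 9 libraries had 1.93 and 2.89 kb and the 2 ESC libraries had 28.9 and 30.1 kb. The order of the stages was that of Otx2, and the day 9 and ESC values overlapped with no other stage. The ESC mean was 29.5 ± 0.834 kb (SD, n = 2) and the change over stages passed the test (exact permutation test, adjusted p = 0.00291). ESC peaks covered 28.8% ± 0.815 of the window, more than in 98.8% of coding genes. No other coding gene lies in this window.

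All 8 Foxd3 regions that had a peak in 2 libraries of a stage had it in both ESC libraries and in no MEF library. Of these, 6 were seen in ESC alone, among them chr4:99655376-99658609 over the gene and its start. The other 2 were also present in both day 9 libraries. They flank the gene, at chr4:99640099-99643646, 13 kb upstream, and at chr4:99666206-99673402, 7.5 kb downstream, the second with a fold of 26.9 and 25.8 in ESC. The gene and its promoter had no peak at day 9.

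**Figure D2:**
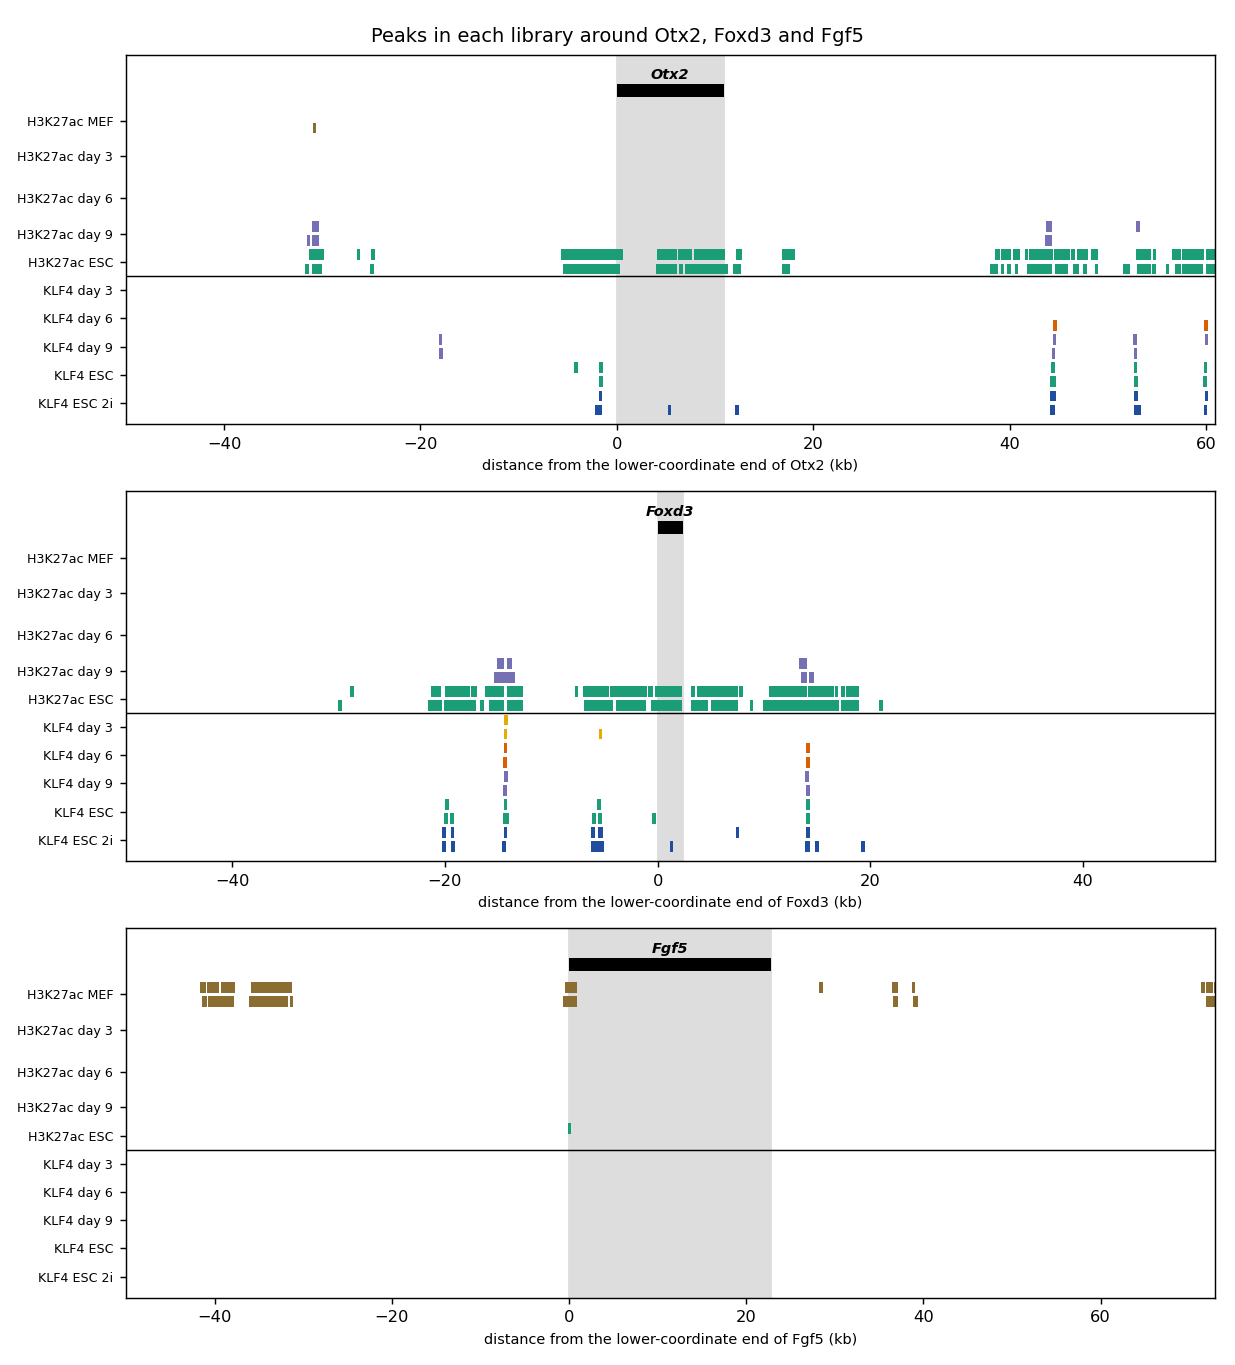
Peaks of every library (rows, grouped by mark and stage) over the windows of Otx2, Foxd3 and Fgf5, with the distance from the gene's lower-coordinate end in kb; the gene is the black bar and grey band, and peaks narrower than 0.35 kb are drawn 0.35 kb wide. Around Foxd3 the day 9 H3K27ac peaks sit at the 2 places where KLF4 peaks were already called at day 6, and the Fgf5 window has no KLF4 peak.

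Zic2 (chr14:122475384-122480328) encodes a zinc finger factor of the ZIC family, which binds enhancers of the maturing epiblast and later acts in the neural plate. Its window held 1.35 and 2.56 kb under H3K27ac peaks in MEF, and the 3 libraries of day 3 had 1.46, 0.241 and 0.535 kb. Those of day 6 had 0.856, 0.282 and 2.42 kb. The day 9 libraries had 9.53 and 11.0 kb and the ESC libraries 20.2 and 20.6 kb. MEF, day 3 and day 6 overlapped, day 9 lay above all 3 and ESC above day 9. In the batch of day 9 alone, day 3 had 1.46 kb and day 6 had 2.42 kb. The mean rose from 1.95 ± 0.861 kb in MEF to 20.4 ± 0.275 kb in ESC (SD, n = 2 each; exact permutation test over stages, adjusted p = 0.00146). In ESC this was 19.4% of the window, above 95.1% of coding genes.

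Of the 18 Zic2 regions, 12 had a peak in both ESC libraries and 10 of these had none in MEF. The region over the gene's lower-coordinate end (chr14:122473646-122477989) had a peak in both MEF libraries, 1 of 3 day 3, 2 of 3 day 6, both day 9 and both ESC libraries. Its authors' fold was 4.10 and 4.06 in MEF and 15.2 and 17.7 in ESC. The region over Zic5, the paralogue next to it (chr14:122462613-122467016), had peaks in all libraries of MEF, day 6, day 9 and ESC and in none of day 3. Of the regions absent from MEF and day 6, chr14:122449728-122451656 and chr14:122467258-122469722 were present in both day 9 and both ESC libraries. The region chr14:122431195-122435557, in the noncoding gene Gm5089, had peaks in all 3 day 3 libraries, none at day 6, and again in both libraries of day 9 and of ESC.

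Fgf5 (chr5:98254184-98277033, plus strand) encodes a secreted fibroblast growth factor and is the classical transcript of the primed epiblast. The 2 MEF libraries had 12.4 and 11.7 kb under H3K27ac peaks in its window, all 8 libraries of days 3, 6 and 9 had 0, and the 2 ESC libraries had 0.312 and 0 kb. MEF and the rest did not overlap. The mean fell from 12.1 ± 0.462 kb in MEF to 0.156 ± 0.221 kb in ESC (SD, n = 2 each; exact permutation test over stages, adjusted p = 0.0205). The call was lost without any 1 of the 6 libraries of days 3 and 6 (exact permutation test, adjusted p up to 0.0540) and when each list was cut to equal length (exact permutation test, adjusted p = 0.0506). MEF peaks covered 9.82% of the window, more than in 80.7% of coding genes, and no other gene of the table lies in it.

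Of 9 Fgf5 regions, 7 had a peak in both MEF libraries, and 6 of these had none in any other library. The longest, chr5:98218046-98222928, lies 31 kb upstream and had a fold of 26.3 and 27.3. The region over the start (chr5:98253546-98255061) had a fold of 7.49 and 6.15 in MEF and was the only one with a later peak, in 1 of 2 ESC libraries with a fold of 4.04. The fibroblast markers had their highest H3K27ac in the same 2 libraries, and their part in the Fgf5 result was not tested.

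Pou3f1 (chr4:124657646-124660655) encodes the POU factor OCT6, a partner of OTX2. Its window had 11.8 and 11.8 kb under H3K27ac peaks in MEF, 7.81, 6.30 and 4.90 kb at day 3, and 0.648, 0.277 and 2.16 kb at day 6. The day 9 libraries had 8.01 and 8.90 kb and the ESC libraries 6.34 and 6.58 kb. MEF was highest and day 6 lowest in covered length, each without overlap with another stage. This order turned when each value was divided by the total length of its list: per Mb of list, MEF had 141 to 142 bp, below day 3 (203 to 206 bp) and day 9 (164 to 180 bp), and day 6 (30.1 to 108 bp) overlapped ESC (95.7 to 106 bp). In covered length ESC fell by 5325 bp against MEF (exact permutation test over stages, adjusted p = 0.000486), and it stayed below MEF per Mb of list. In peak number ESC lay above MEF, with 11 in each library against 7 and 8. The window was covered more than that of 85.6% of coding genes in MEF and of 68.7% in ESC. In MEF, day 3 and ESC most of this length lay at the neighbours Utp11 and Fhl3, at 25 kb to 50 kb from the gene, as at chr4:124691339-124694205, which had a peak in all 12 libraries, and chr4:124707551-124710889, with a fold of 25.2 and 28.9 in MEF. With a narrower window the direction also turned. Within 10 kb of Pou3f1 all 5 libraries of MEF and day 3 had no H3K27ac. The day 6 libraries had 0.24, 0 and 0.71 kb there, the day 9 libraries 4.15 and 4.55 kb, and the ESC libraries 1.55 and 1.13 kb. Day 9 was the highest stage near this gene, at 4.35 ± 0.285 kb against 1.34 ± 0.297 kb in ESC (SD, n = 2 each), although batch and stage cannot be told apart in that pair.

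The region over the gene (chr4:124656699-124660408) had peaks in no library of MEF or day 3, 2 of 3 of day 6 and both of day 9 and of ESC. The rest of the day 9 length within 10 kb lay at chr4:124667606-124668249 and chr4:124668422-124668903, 7 to 8 kb to the higher side, which had a peak in both day 9 libraries and in no other. The region chr4:124614739-124615728 was found in all 3 day 3 libraries alone. Pou3f1 was the only member with regions of the intermediate stages that were missing from both MEF and ESC, apart from chr14:52327680-52328449 in Sall2. These regions were chosen after their values were seen.

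Sall2 (chr14:52311177-52328670, minus strand) encodes a zinc finger factor of the Spalt family, expressed in the epiblast and in neural cells. Its window held 5.87 and 5.37 kb under H3K27ac peaks in MEF, 3.89, 2.86 and 2.11 kb at day 3, and 1.47, 1.30 and 4.05 kb at day 6. The day 9 libraries had 6.62 and 7.30 kb and the ESC libraries 8.98 and 7.35 kb. In covered length days 3 and 6 overlapped and lay below MEF, day 9 and ESC. Per Mb of list the order was another: MEF was lowest (64.2 and 70.9 bp), day 3 followed (88.5 to 101 bp), and day 6 (140 to 203 bp) lay above day 3 and overlapped day 9 (135 to 147 bp). ESC, highest in covered length, had 136 and 118 bp per Mb of list, below all 3 day 6 libraries and overlapping day 9. ESC was 2546 bp above MEF (exact permutation test over stages, adjusted p = 0.00291), but with lists cut to equal length it fell by 1532 bp against MEF and no call was made (exact permutation test, adjusted p = 0.109). The share of coding genes with less of their window covered was 54.0% in MEF and 71.6% in ESC. Within a window of 10 kb the means were 3.28 ± 0.284 kb in MEF and 3.69 ± 0.670 kb in ESC (SD, n = 2 each), a difference smaller than the ESC spread. Peaks at neighbours, such as chr14:52278113-52280633 at Rab2b and Tox4 and chr14:52303992-52306285 at Mettl3, were present in all 12 libraries.

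The region at the start inside Sall2 (chr14:52315346-52316915) had an H3K27ac peak in 11 of 12 libraries, missing in 1 of day 6, and the peaks of the other 2 day 6 libraries ended within the gene, short of the sequence before that start. Just inside the gene, next to the upstream start, a region at chr14:52327680-52328449 was seen in 2 of 3 libraries of day 6 and both of day 9 and in no MEF, day 3 or ESC library. In ESC, peaks instead lay just outside the gene, at chr14:52331004-52331569, 2.3 kb upstream of that start, and at chr14:52343015-52343783 and chr14:52343890-52344291, about 15 kb upstream, the first of this pair also in 1 MEF library.

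**Figure D3:**
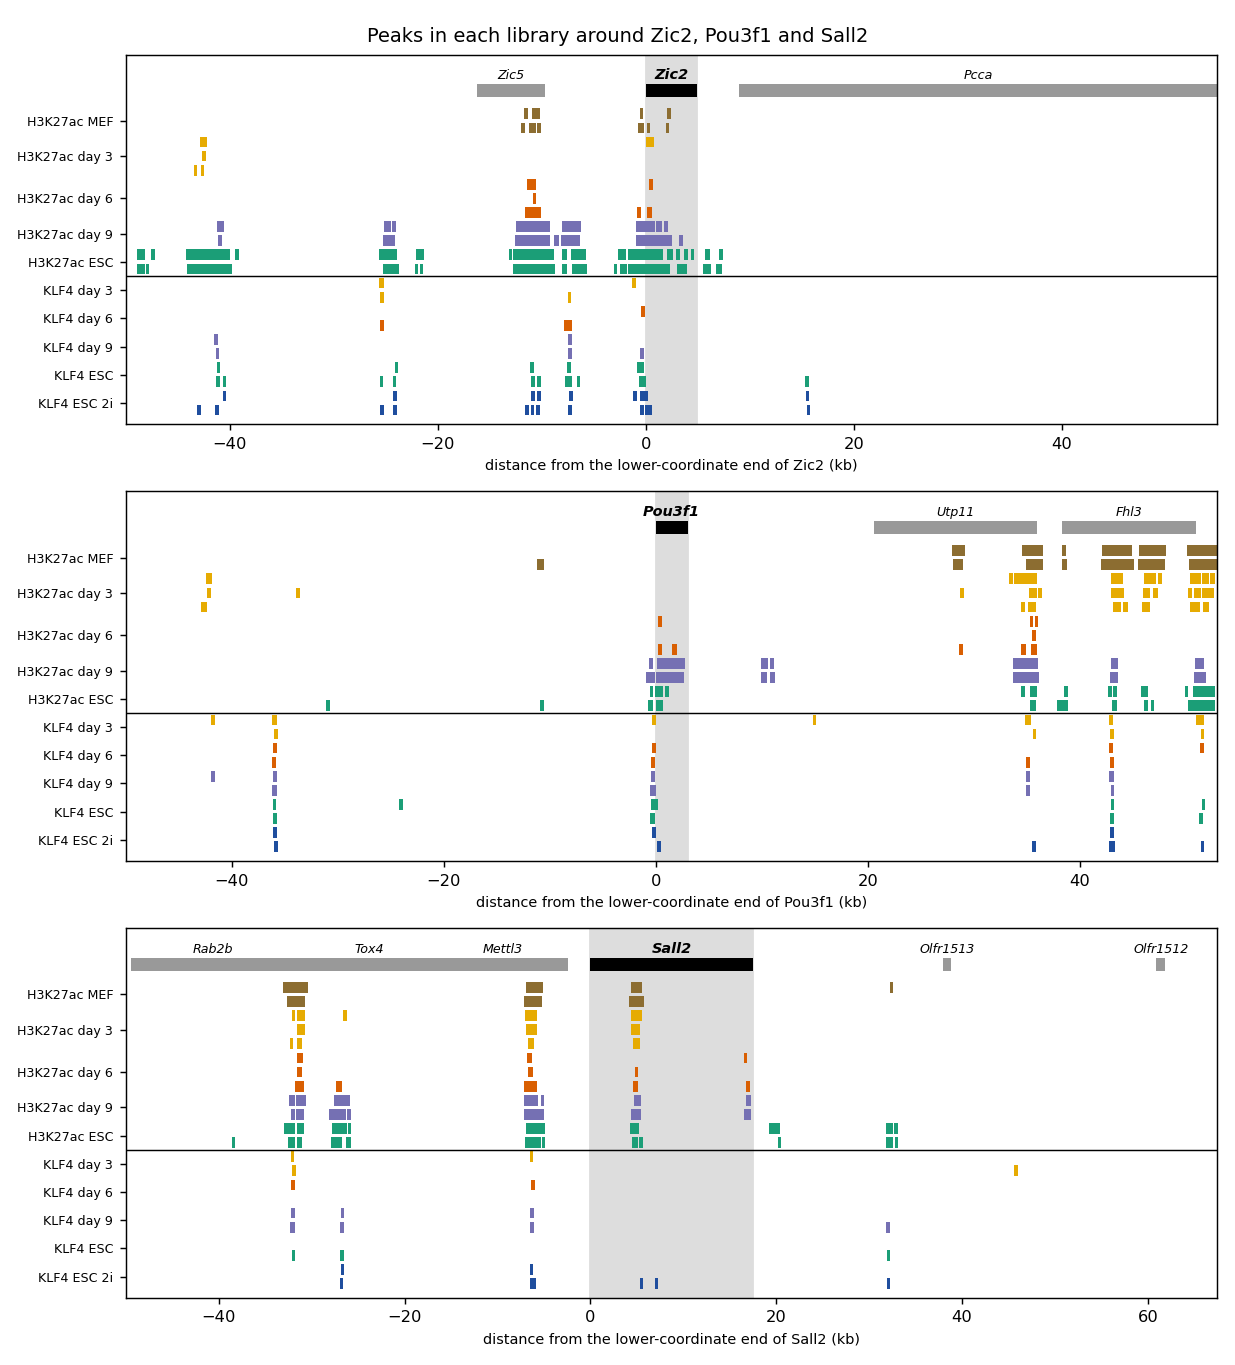
Peaks of every library (rows, grouped by mark and stage) over the windows of Zic2, Pou3f1 and Sall2, with the distance from the gene's lower-coordinate end in kb; black bars are the 3 genes and grey bars their coding neighbours, and peaks narrower than 0.35 kb are drawn 0.35 kb wide. Near Pou3f1 the H3K27ac peaks begin at day 6 and are longest at day 9, while the MEF H3K27ac peaks of its window lie at Utp11 and Fhl3, apart from 1 peak on the lower side in 1 library.

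Taking the 6 windows together, 93 H3K27ac regions were found, of which 65 had a peak in at least 2 libraries of a stage and 27 were seen in a single library. In both ESC libraries and no MEF library were 41 regions, 44.1% of the members' regions against 17.5% of all 179334 regions. By gene these were 19 at Otx2, 10 at Zic2, 8 at Foxd3, 3 at Sall2 and 1 at Pou3f1. In both MEF libraries and no ESC library were 7, against 23.3% of all regions, and 6 of them belonged to Fgf5 and 1 to Pou3f1. Of the 41 ESC regions, 8 had a peak in both day 9 libraries, where the share over all such regions was 17.2%, and 3 of the 8 were at Zic2. Of the 7 MEF regions, the 6 of Fgf5 had no peak in any later library, as did 75.8% of all MEF regions. Both counts shift with the library left out and the window, and the ESC count came to 65 without the second ESC library and the MEF count to 12 without the second MEF library.

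**Figure D4:**
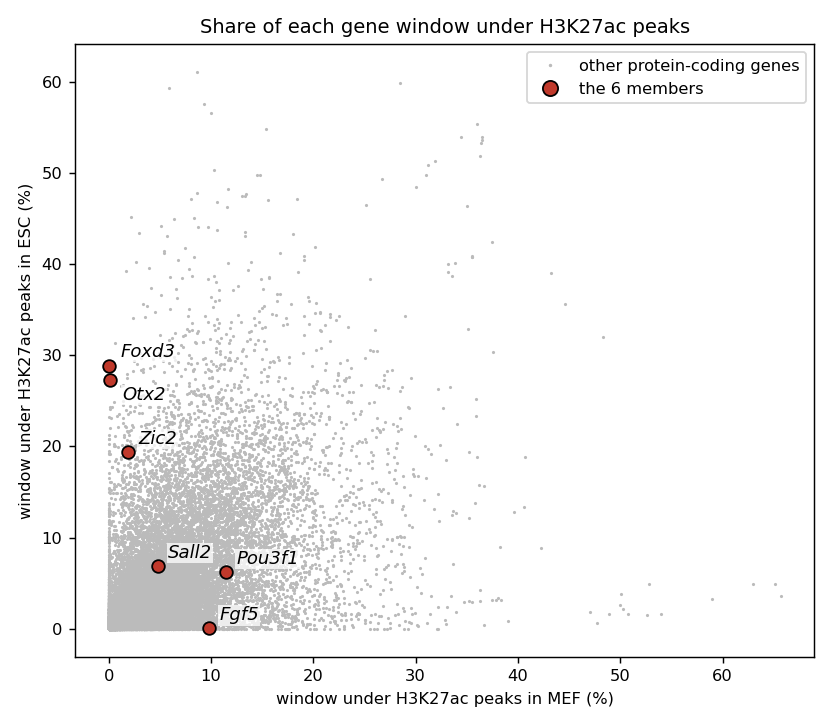
Share of each gene window under H3K27ac peaks in MEF (horizontal, %) and in ESC (vertical, %), as the mean of 2 libraries each, for the members (red) and all other coding genes (grey). Otx2 and Foxd3 lie at the left edge near 27.3% and 28.8%, Zic2 is to the left at 19.4%, and Fgf5 lies at the bottom.

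KLF4 peaks around Foxd3 and Zic2 were few up to day 9 and more numerous in ESC of both media, and those around Otx2 numbered 3.5 on average at day 9, 4.5 in serum ESC and 5.0 in 2i. Those around Pou3f1 and Sall2 showed no order by stage, and Fgf5 had none. The exact permutation test over the 5 groups called 0% of 18857 windows after adjustment, while 2145 had an unadjusted p of at most 0.05. Of all windows, 5.87% had such a p with serum ESC above day 3 and 5.2% with serum ESC below it, and Otx2, Foxd3 and Zic2 were among the first. Their adjusted p was 0.423 each (exact permutation test), so none of them passed. The smallest p that 2 libraries in each of 5 groups allow is 0.00106 before adjustment.

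**Figure D5:**
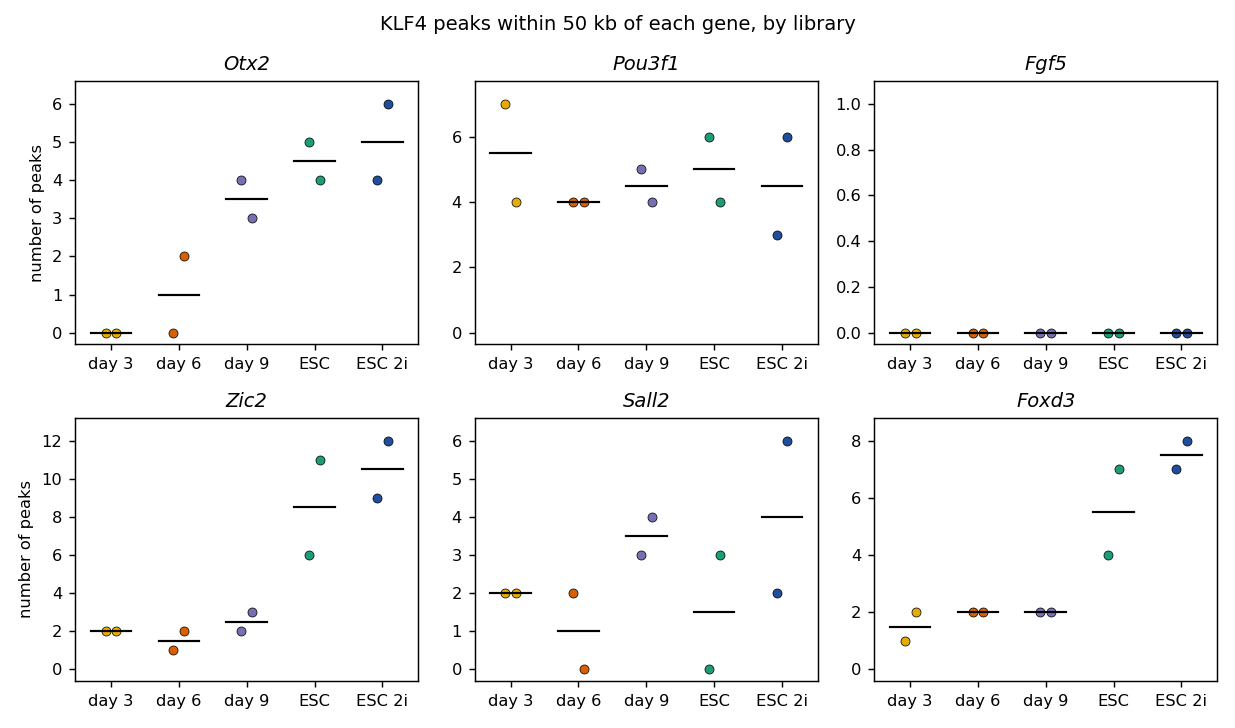
Number of KLF4 peaks (vertical axis, a scale of its own for each gene) in the gene and 50 kb to each side, for day 3, day 6, day 9, serum ESC and ESC in 2i. Each point is 1 library and each bar the mean of 2; serum ESC and 2i overlap for Otx2, Zic2, Pou3f1 and Sall2, and Fgf5 is at 0 in all 10 libraries.

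At Otx2, KLF4 peaks numbered 0 and 0 at day 3, and 0 and 2 at day 6. Day 9 had 4 and 3, serum ESC 5 and 4, and ESC_2I 4 and 6. Day 9 and both ESC media overlapped and lay above days 3 and 6 in number (exact permutation test over groups, p = 0.0286 before adjustment). In covered length day 9 lay below ESC without overlap, with 1.008 and 0.899 kb at day 9 and 1.495 to 2.805 kb in the 4 ESC libraries. Within batch EA-3702 days 3 and 6 had 0 peaks, the day 9 libraries 4 and 3, and ESC_2I had 4. The 3 sites found most often lie upstream in Otx2os1. The first, chr14:48700842-48701484, was in 1 day 6 library and in both of day 9, serum ESC and ESC_2I. It overlaps the upstream H3K27ac region of day 9. The second, chr14:48709395-48710126, began in both day 9 libraries. The third, chr14:48716433-48716904, was in 1 library each of days 6 and 9 and in all 4 of ESC. The site chr14:48654583-48655274, 1.5 kb past the gene's 3′ end and inside its highest H3K27ac region, was in all 4 ESC libraries and in no earlier one.

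At Foxd3, 1 and 2 KLF4 peaks were called at day 3, and 2 in each library of days 6 and 9. Serum ESC had 4 and 7, and ESC_2I 7 and 8. The ESC libraries of both media lay above all 6 earlier ones (exact permutation test over groups, p = 0.0317 before adjustment). Within batch EA-3702 the counts were 1, 2, 2 and 2 up to day 9 and 7 in ESC_2I. A site 14 kb upstream, chr4:99641701-99642309, had a peak in all 10 libraries, with a fold of 2.90 and 2.93 at day 3, 4.43 and 4.82 at day 6, 3.92 and 6.56 at day 9, 10.3 and 6.71 in serum ESC and 4.75 and 3.22 in ESC_2I. A site 11.5 kb downstream, chr4:99670194-99670675, had a peak in all 8 libraries from day 6 on, with a fold of 4.43 and 4.61 at day 6, 9.48 and 6.12 at day 9, 9.22 and 8.37 in serum ESC and 17.0 and 10.7 in ESC_2I. Fold is the caller's value for a single peak and depends on its own list. These are the sites where H3K27ac appeared at day 9. The upstream one was occupied at day 3 and day 6, when the window had no H3K27ac peak at all. Sites at chr4:99636030-99636511 and chr4:99650073-99651244 were in all 4 ESC libraries, the first in no earlier one and the second in 1 of day 3.

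At Zic2, KLF4 peaks numbered 2 in both day 3 libraries, and 1 and 2 at day 6. Day 9 had 2 and 3, serum ESC 6 and 11, and ESC_2I 9 and 12. ESC of both media lay above all earlier libraries (exact permutation test over groups, p = 0.0286 before adjustment). Within batch EA-3702 the counts were 2, 1, 2 and 3 up to day 9 and 9 in ESC_2I. The peak over the gene's lower-coordinate end (chr14:122474547-122475430) was in 1 of 2 libraries at day 6 and at day 9 and in all 4 of ESC. The site between Zic5 and Zic2 (chr14:122467515-122468306) was in 1 library each of days 3 and 6 and both of every later group. A pair of sites, chr14:122451017-122451384 and, over Zic5, chr14:122464279-122464709, was in all 4 ESC libraries and in no earlier one. The site chr14:122433877-122434264 was in both libraries of day 9 and of serum ESC and in 1 of ESC_2I. The site chr14:122449759-122450180 was in both day 3 libraries and in 1 each of day 6, serum ESC and ESC_2I.

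At Pou3f1, KLF4 peaks numbered 7 and 4 at day 3, and 4 in both day 6 libraries. Day 9 had 5 and 4, serum ESC 6 and 4, and ESC_2I 3 and 6. All groups overlapped (exact permutation test, p = 0.937 before adjustment). The sites chr4:124621440-124621885, 36 kb to the lower side in the noncoding gene Gm2164, and chr4:124700397-124700884, at Fhl3, had a peak in all 10 libraries. The peak at the gene, chr4:124657134-124657699, was in 8 of 10, missing in 1 library of day 3 and 1 of ESC_2I. That ESC_2I library had a separate KLF4 peak close by, over the gene. The site at chr4:124657134-124657699 was thus present from day 3 in 1 library, when the region over the gene had no H3K27ac peak. At Sall2 the counts were 2 and 2, 2 and 0, 3 and 4, 0 and 3, and 2 and 6 in the same order, with overlap of all but day 9 against days 3 and 6 (exact permutation test, p = 0.511 before adjustment). The 3 sites of the Sall2 window that had a peak in both libraries of a group lay at Rab2b and Tox4, within Tox4 and at Mettl3. At Fgf5 no library had a KLF4 peak, which was so for 8.16% of all coding windows.

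Serum ESC and ESC_2I were set side by side site by site. The 49 KLF4 regions of the members included 17 with a peak in both serum libraries and 19 with a peak in both 2i libraries, and 14 had both. No region had a peak in both serum and no 2i library, against 3.73% of all 85740 KLF4 regions. A single one had both 2i and no serum library, against 2.28% of all regions, at chr14:52304655-52305216 in Mettl3 of the Sall2 window. In mean peak number, ESC_2I stood against serum ESC at 5.0 against 4.5 at Otx2, 7.5 against 5.5 at Foxd3, 10.5 against 8.5 at Zic2, 4.5 against 5.0 at Pou3f1 and 4.0 against 1.5 at Sall2 (means of 2 libraries each). The ranges overlapped or touched in each of them, with 7 peaks at Foxd3 in 1 library of each medium. With 2 libraries a side, a two-sided exact permutation test can give no p below 0.333, and the 4 libraries come from 4 batches, and the effects of the medium and of the batch cannot be told apart. Both site counts rest on single libraries. The count in 2i alone came to 13 without the EA-3702 library of 2i, 3 without the DG-3012 library of 2i and 5 without the EA-2643 library of serum, and the count in serum alone to 1 to 3 without any 1 of the 4 libraries. With the top 50% of each list, 2 regions of the members had serum peaks alone.

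The overlap of KLF4 with H3K27ac of the same stage was high in ESC and low at days 3 and 6. Of 17 member regions with KLF4 in both serum ESC libraries, 16 overlapped H3K27ac in both ESC libraries, against 72.6% of all such regions, and the exception was chr4:124621440-124621885 at Pou3f1. Of 14 with KLF4 in both day 9 libraries, 11 had H3K27ac in both of day 9, against 76.6% of all, and 2 of the other 3 were at Otx2, where 1 of 3 was acetylated. Of 5 with KLF4 in both day 6 libraries, 3 at Pou3f1 and 2 at Foxd3, 0 overlapped an H3K27ac peak of any day 6 library. Of all such regions, 60.3% did so in at least 1 of 3 and 36% in all 3. These counts need a direct overlap with a peak, by at least 1 bp. The Pou3f1 site chr4:124657134-124657699 lies inside the merged H3K27ac region over the gene, which had peaks in 2 of 3 day 6 libraries. Those peaks lay beside the site, the nearest starting 0.216 kb past the gene's lower-coordinate end. Of 6 with KLF4 in both day 3 libraries, 3 had H3K27ac in at least 1 of 3 day 3 libraries, against 69.9% of all, and 2 in all 3, against 49.1%. Regions with KLF4 in all 10 libraries numbered 3, against 4.89% of all KLF4 regions, 2 at Pou3f1 and 1 at Foxd3. Those in all 4 ESC libraries and none of days 3 to 9 numbered 4, against 1.55% of all, 2 at Zic2 and 1 each at Otx2 and Foxd3. None of these shares has a test.

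KLF4 was also counted inside the ESC regions, split by whether they had H3K27ac at day 9, a count chosen after its values were seen. Of the 8 that had H3K27ac in both day 9 libraries, 3 held a KLF4 peak in both day 6 libraries, namely both Foxd3 regions and the region over Pou3f1, and the share over all such regions was 39.5%. The Pou3f1 region already had H3K27ac in 2 of 3 day 6 libraries, and both Foxd3 regions had none at day 6. Of the 31 with H3K27ac in ESC alone, 0 held a KLF4 peak in both day 6 libraries, against 0.873% of all such regions. For KLF4 of both serum ESC libraries the counts were 7 of 8, against 44% of all, and 5 of 31, against 6.94%. The day 6 shares of the members are near those over all regions, the 3 regions come from 2 genes, the length of the regions was not matched between the 2 classes, and no difference was tested.

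Among 20 other genes of the formative and primed epiblast, 16 had more H3K27ac in ESC than in MEF and 4 had less, and all 20 passed the exact permutation test, beside the 97.6% of all windows that did. The median difference was 4728 bp, against -361.5 bp over all tested windows. Dnmt3b, a DNA methyltransferase, went from 4.76 ± 0.229 kb in MEF to 13.2 ± 1.34 kb in ESC (SD, n = 2 each). The 4 that fell were Cdh2, the adhesion protein N-cadherin, at 23.2 ± 0.224 kb in MEF and 1.90 ± 0.450 kb in ESC, and Dnmt3a, Dusp6 and T. Zic5 is also in this list, and its window overlaps that of Zic2. In the list of 14 naive genes all 14 had more H3K27ac in ESC, with a median difference of 25760 bp. For KLF4 none of either list passed after adjustment. At an unadjusted p of at most 0.05 (exact permutation test), 3 of 19 tested formative genes had more peaks in serum ESC than at day 3 and 1 had fewer, and 6 of 14 naive genes had more, beside 5.87% of all windows with more and 5.2% with fewer.

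Markers of other cell types moved with some members. The summed H3K27ac length around the neural markers Sox1, Pax6, Olig2 and Neurog2 was 0 to 0.28 kb in MEF, 6.53 to 9.06 kb at day 9 and 27.04 to 29.63 kb in ESC, with 3 of 4 detected in each ESC library and Neurog2 at 0. Around T, Mixl1, Sox17 and Gata6, markers of mesoderm and endoderm, it was 9.21 to 10.6 kb in MEF, 0.609 to 1.09 kb at day 6, 2.25 to 3.38 kb at day 9 and 5.22 to 6.496 kb in ESC, where all 4 were detected and Sox17, at 0 in every earlier stage, had a peak. The part of differentiating cells in the Otx2, Zic2 and Foxd3 signal was not tested.

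The courses of the members over the 12 H3K27ac libraries were compared by the Pearson correlation of their covered length, as a description, since all windows share the length of each library's list. Otx2 and Foxd3 were most alike (r = 0.998), Zic2 followed both (r = 0.908 with Otx2 and 0.920 with Foxd3), and Fgf5 was apart from these 3 (r from -0.233 to -0.196). Fgf5 was closest to Pou3f1 among the members (r = 0.675). For Otx2 and Foxd3 such a value rests largely on the ESC libraries, and for Fgf5 on those of MEF. Other coding genes were searched too, without those of Gm or Rik names or with a window overlapping the member's. Among them, the windows most like Otx2 were those of Stard8 and Golga7b (r = 0.99996 and 0.99987). Those most like Foxd3 were Zfp600 and Icosl (r = 0.9997 and 0.9995). For Zic2 they were Slc49a4 and Grhl3 (r = 0.998 and 0.997), for Fgf5 Ndst4 and Mroh9 (r = 0.9998 each), for Pou3f1 Wdr25 and Cyb561d2 (r = 0.989 and 0.988), and for Sall2 Micos13 and Rpl36 (r = 0.992 and 0.990).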

How the data were processed

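H3K27ac (12) and KLF4 (10) ChIP-seq libraries were used, with groups taken from the labels. Replicates are biological, per the labels' design text, but no animal or culture is named for a library, so p-values measure the spread between these libraries. The authors deposited 1 peak list per library, called per sample, with 10 columns: for each peak a score, a fold enrichment (ratio), and a p-value and a q-value, each as −log10. The submitters' processing notes name cutadapt 1.8.1, Bowtie2 2.2.5, deepTools 2.3.6, MACS2 2.1.1 and the build mm10, which is GRCm38. Caller settings and the control used are not given in the sources used here. In each list the smallest deposited −log10 p was 2.00 to 2.09, so the lists end near a p of 0.01, and 35.1% to 89.7% of a list's peaks had a q-value of at most 0.01. No read counts are in these files, so depth is unknown.

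Windows were the RefSeq gene (GRCm38.p6 gene table) with 50 kb to each side. Regions were the merged peaks of all libraries of a mark (overlap of at least 1 bp). The value tested was covered length for H3K27ac and peak number for KLF4, in every window with a peak in at least 2 libraries, by an exact permutation test of the between-stage sum of squares over all distinct assignments (138600 and 945), with Benjamini-Hochberg adjustment over all windows and a threshold of 0.05. The code (Python 3.11.15, numpy 2.4.6, pandas 2.3.3) was tested on H3K27ac window values shuffled across libraries, with an artificial stage effect put into some windows. The interval code was checked against a slower count. Named regions had a peak in at least 2 libraries of a stage. The rule was up to 6 for H3K27ac and 4 for KLF4 per gene, most libraries first, and it was not kept throughout. Sall2 has more H3K27ac regions named than that, and Zic2 more KLF4 regions. In H3K27ac at Otx2, Pou3f1 and Sall2, some regions were passed over for others found in fewer libraries. Among them are chr4:124699628-124702741 (9 libraries) and chr14:52283075-52285410 (6 libraries). Ties and further regions were picked after seeing their values, as were the counts of KLF4 peaks inside ESC H3K27ac regions. The members, lists and tests were chosen with earlier results of these data known. Alternatives were windows of 10 and 100 kb, peak number in place of covered length or the reverse, scaling to the list total, the top 50% of each list, the same number of top peaks (17493 and 21129), a q-value of at most 0.01, 50% overlap, permutation within batches, the replicate number as a block (also with the day 6 numbers exchanged) and leaving out each library. Inputs were left out because no file of theirs was used here.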

Additional observations from a re-analysis of the deposited data

Results flagged for a closer look

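H3K27ac in the Sall2 window moved in opposite directions from day 3 to day 6 in the 2 batches that hold both stages. In batch DG-3458 both day 6 libraries (1.47 and 1.30 kb) lay below both day 3 libraries (2.86 and 2.11 kb), a difference of -1.10 kb. In batch EA-3702 the single day 6 library (4.05 kb) lay above the single day 3 library (3.89 kb), by 0.166 kb. Per Mb of list the values rose in both batches, from 93.8 and 88.5 bp to 140 and 141 bp in DG-3458 and from 101 to 203 bp in EA-3702, so the opposite directions are seen in covered length and not on this scale. The difference between the batches was not tested, and 1 library a stage in EA-3702 gives no spread. The day 6 list of EA-3702 covered 19.9 Mb of the genome in all, against 10.5 and 9.21 Mb in DG-3458.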

How the results depend on the processing

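The direction of ESC against MEF held in all alternatives for Otx2, Foxd3, Zic2 and Fgf5. For Pou3f1 it turned positive with 10 kb (1338 bp) and with peak number (3.5 peaks), and for Sall2 negative with the same number of top peaks (-1532 bp). The replicate numbers shared by MEF, day 3, day 6 and ESC in batch DG-3458 did not pair the libraries (correlation of replicate differences over 19774 genes from -0.025 to 0.074), and with the number as a replicate block 0 windows passed after adjustment, while 11621 had an unadjusted p of at most 0.05; the smallest p such an exact permutation can give is 0.0417. The peak names inside both day 6 files of that batch carry the opposite number to the labels. With the day 6 numbers exchanged, an alternative chosen after seeing the data, the correlations ran from -0.074 to 0.054 and with the replicate block again 0 windows passed after adjustment (11271 with an unadjusted p of at most 0.05). KLF4 calls stayed at 0 windows under every alternative. The KLF4 difference of serum ESC against day 3, negative for Pou3f1 and Sall2, turned positive for Pou3f1 with 10 kb (1 peak), scaling (0.302 peaks per 10000), the same number of top peaks (1), and without a library (from -2 to 1), and for Sall2 with the top 50% (1), the same number (0.5), the q-value limit (0.5), and without a library (from -2 to 1). ESC regions absent from MEF numbered 16 with 10 kb, 15 with the same number of top peaks and 42 to 65 without a library. MEF regions absent from ESC numbered 0 with 10 kb, 12 with 100 kb and 7 to 12 without a library. Serum regions absent from 2i numbered 1 with 100 kb, 2 with the top 50% and 1 to 3 without a library, and 2i regions absent from serum 4 with 100 kb, 0 with the same number, 0 with the q-value limit and 1 to 13 without a library. The causes were not tested beyond what each setting removes.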
